A study of Mus musculus with 4 samples.

Results

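Thyroid hormone acts on neurons through nuclear receptors that bind DNA, usually with a retinoid X receptor as partner. They bind paired half-sites, and the direct repeat called DR4 is the best known arrangement. Without hormone such receptors recruit corepressors, and with hormone they recruit coactivators, so that genes near bound sites can be induced. TRα1, the receptor made from Thra, is the main form in brain. The 10 genes described here are Flywch2, Hif3a, Itga7, Abcd2, Gls2, Cbr2, Agbl3, Gbp3, Cirbp and Aldh1a1, taken as a working set of neuronal genes induced by thyroid hormone. They were chosen by name, from 21887 protein-coding genes, with earlier results of these data known. Shares and distances given for them below therefore describe the set and do not test it. The peaks belonging to them were those whose summit lay in the gene's annotated span extended by 30 kb on both sides, which gave 7 of the 7484 peaks in the list. Expression was not measured in this series, so the induction that names the set was not checked.

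Chromatin came from striatum of mice that the title describes as carrying Gad2-Cre and Thra-GS, with the tagged receptor named GS-TRα1. The 3 immunoprecipitated (IP) fractions were recovered on magnetic beads coated with IgG, and the 1 input library had no antibody step. All 4 libraries are labelled striatum, and Gad2 drives Cre in GABAergic neurons, so other striatal cells are covered only as far as that driver is active in them. Age, sex, hormone status and the number of animals are not given in the labels. An IP from mice without the tag was not analysed here, so recovery of chromatin by the beads alone cannot be told apart from receptor binding at any peak below.

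The series has 1 deposited list of peaks, with 1 value per peak and none per fraction, and the spread over fractions is unknown. Which of the fractions entered it is not stated. Each peak is described on several scales. The number of fragments at the summit is the deposited pileup divided by its smallest step of 0.939, and its 95% exact Poisson interval covers counting error only. The fold enrichment is the authors' ratio of pileup to local background, each with 1 added. The width is the length of the called region. Over the whole list the summits held a median of 23 fragments (range 10 to 305), the median fold was 6.91 and the median width was 260 bp. A peak list does not show expression and cannot name the cells. Among marker genes, a peak lay in the window of 5 of 8 for striatal GABAergic neurons and 3 of 7 for glia and cortical glutamatergic neurons. The share over all protein-coding genes was 32.4%. These short lists describe where peaks lie, and a difference between them was not tested.

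A peak was found at 6 of the 10 genes, against 32.4% of all protein-coding genes by the same rule. Among the 17417 protein-coding genes whose spans are no shorter than that of Cbr2 and no longer than that of Aldh1a1, the share was 33.4%. Flywch2, Abcd2, Gls2, Itga7 and Hif3a had 1 peak each, and Cirbp had 2. A second peak was present for 10.9% of all protein-coding genes. Cbr2, Agbl3, Gbp3 and Aldh1a1 had none. The peaks fell into 2 kinds by position. At Flywch2, Abcd2 and Gls2 the summit lay within 1 kb of an end of the gene itself, while at Itga7, Hif3a and Cirbp it lay 3.81 to 20.3 kb away and inside the span of another gene. The count follows the width of the window, since 2 of the 10 genes held a summit in the gene span alone, against 13.7% of all protein-coding genes.

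**Figure D1:**
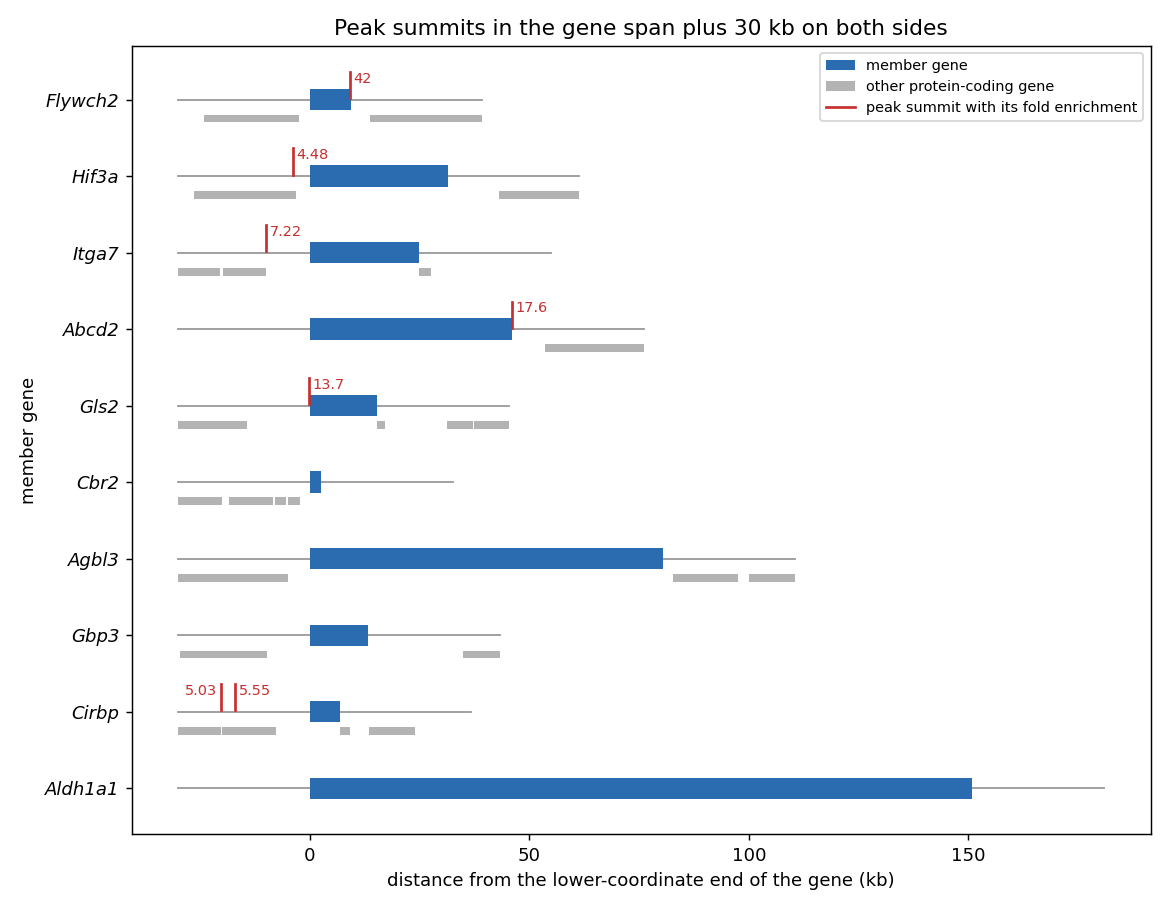
Map of the 10 genes, each drawn from 30 kb below to 30 kb above its span, with the distance from its lower-coordinate end in kb on the horizontal axis. Blue boxes are the named genes, grey boxes are other protein-coding genes and red lines are peak summits with their fold enrichment. The summits at Flywch2, Abcd2 and Gls2 sit at an end of the gene, those at Itga7, Hif3a and Cirbp sit over grey boxes, and the other 4 genes have no summit.

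Flywch2 encodes a small protein with a FLYWCH zinc finger. It carried the strongest peak of the set, on chromosome 17 from 23785827 to 23786323 of GRCm38. The summit held 128 fragments (interval 107 to 152) over a background of 1.89, and the fold of 42.0 ranked 10 among 7484 peaks. By pileup the same peak ranked 26. RefSeq places a Flywch2 start on the minus strand, and the summit was 1 bp from it. The start is the anchor of a 300 bp promoter window, with 250 bases before it and 50 from it onwards, of which the peak covered 292 bases. The window is shown because the peak lies on it almost whole. It is given 5′ to 3′ on the minus strand from chr17:23786032-23786331 (RefSeq, GRCm38.p6). The only match to GGGTCA, here read as its reverse complement TGACCC, is in capitals.
Flywch2 promoter: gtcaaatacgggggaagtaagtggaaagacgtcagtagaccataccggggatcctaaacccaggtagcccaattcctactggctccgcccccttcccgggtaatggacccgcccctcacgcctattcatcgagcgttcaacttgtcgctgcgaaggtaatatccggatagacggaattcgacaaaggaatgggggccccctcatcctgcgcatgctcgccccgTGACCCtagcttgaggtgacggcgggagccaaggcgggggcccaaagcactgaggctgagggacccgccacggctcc

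The letters in capitals are bases 224 to 229 of the window, 22 to 27 bases before the start that anchors it. They lay 23 bp from the summit, and that start stands at base 251. The annotated span of the gene runs 135 bp beyond this start. The capitals therefore lie inside the span, and the summit was 136 bp from its upper end. AGGTCA, the consensus half-site, was not in the Flywch2 window on either strand. Promoter windows were given for 7 of the 10 genes, 10 windows in all, with none for Abcd2, Gls2 and Itga7. AGGTCA was in 0 of these 10 windows and in 16.3% of all 32851 windows. AGGTCA or GGGTCA was in 4 of the 10 and in 27.5% of all windows, and AGGTCA or AGGACA was in 2 of the 10 and in 32.7% of all.

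A peak summit lay in 1 of the 10 windows, that of Flywch2, against 1.63% of all windows. The closest matches to DR4 in the promoters were searched as AGGTCA, any 4 bases and AGGTCA again, on both strands, with up to 3 mismatches in the 12 fixed bases. Such a match was in 2 of the 10 windows, at Gbp3 and Aldh1a1, and in 21.9% of all windows. The matches are shown beside the closest run at Flywch2, which had 4 mismatches, to set the letters of 2 genes without a peak beside those of the gene with the strongest one. Capitals mark bases equal to the motif.
Gbp3, chr3:142559980-142559995, plus strand: gGtTCAtgtcAGGaCA
Aldh1a1, chr19:20492411-20492426, plus strand: AGGaCAttccAGGTgg
Flywch2, chr17:23786298-23786313, minus strand: AaGTggaaagAcGTCA

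The Gbp3 run ended 49 bp before the annotated start of that gene and the Aldh1a1 run 157 bp before its start. Neither gene had a peak in its window. The Flywch2 run stood 217 bp before the start that anchors its window, under the flank of the Flywch2 peak. With up to 2 mismatches the motif was in 0 of the 10 windows and in 3.02% of all windows. Over the 537 promoter windows of any gene that held a summit, these shares were 38.0% with up to 3 mismatches and 11.4% with up to 2. AGGTCA alone was in 17.3% of those 537 windows, close to the 16.3% of all windows. With GGGTCA added the share was 35.2%, and with AGGACA added it was 36.3%. These are descriptions of letters, and the windows cover only the start of a gene.

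Flywch2 shared its peak with a relative. The summit lay inside Flywch2 alone, but 11.6 kb from Flywch1, which encodes another FLYWCH zinc finger protein and lies on the lower-coordinate side of Flywch2. It was 4.45 kb from Srrm2, a splicing factor gene on the other side. The annotated starts of these neighbours were farther, at 14.5 kb for Flywch1 and 17.1 kb for Srrm2.

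Abcd2 encodes a peroxisomal transporter of very long chain fatty acids, a gene whose induction by thyroid hormone is known from rat liver. Its peak, on chromosome 15 from 91191598 to 91192177, was the widest of the set at 580 bp, which placed it in the widest 2.41% of the list. The summit held 74 fragments (interval 58.1 to 92.9) and stood 24 bp inside the upper end of the gene. The fold was 17.6, rank 389. The local background was 3.0, 1.59 times the lowest in the list, while Flywch2 and Gls2 stood at the lowest. By pileup, which does not include the background, Abcd2 ranked 209. The only other protein-coding gene with this peak in its 30 kb window was CN725425, 7.46 kb away.

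Gls2 encodes the liver-type glutaminase of mitochondria, which releases glutamate from glutamine. Its peak, on chromosome 10 from 128194297 to 128194554, lay just outside the gene, with the summit 204 bp below the lower end and in the span of no protein-coding gene. The summit held 41 fragments (interval 29.4 to 55.6), with a fold of 13.7, rank 839. The peak was 258 bp wide, close to the median of the list. Rbms2, an RNA-binding protein gene, was 14.1 kb away and Spryd4 was 15.5 kb away.

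These 3 peaks were the ones with a fold of at least 10. A fold of that size within the window was reached by 3 of the 10 genes and by 10.5% of all protein-coding genes. A summit within 1 kb of either gene end was also present at 3 of the 10, against 6.63% of all protein-coding genes. Both conditions in the same peak were met by these 3 genes and by 1.76% of all protein-coding genes. The 1 kb rule and the fold of 10 were chosen after the values were seen, so these shares describe the set and do not test it.

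Itga7 encodes the integrin alpha 7 subunit, a laminin receptor best known from muscle. Its peak, on chromosome 10 from 128923010 to 128923545, lay 9.99 kb below the gene. The summit held 22 fragments (interval 13.8 to 33.3) with a fold of 7.22, near the median of the list. The region was 536 bp wide, in the widest 3.38% of the list, and its summit stood 423 bp from its lower edge. It lay inside Bloc1s1, which encodes a subunit of the lysosome-related organelle complex BLOC-1, at 91 bp from the annotated start of that gene. Rdh5, a retinol dehydrogenase gene, was 3.40 kb away and Cd63, a tetraspanin gene, 10.6 kb away, so Bloc1s1 and Rdh5 were both nearer to the summit than Itga7.

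Hif3a encodes an alpha subunit of the hypoxia-inducible factors, some forms of which act as inhibitors. The summit, on chromosome 7 in the peak from 17027035 to 17027288, held 18 fragments (interval 10.7 to 28.4) over a background of 3.0. The fold of 4.48 was the lowest of the set, rank 6885, with a −log10 q of 4.39. It lay 3.81 kb below the gene, on the side away from its annotated start, which was 35.2 kb from the summit. It was inside Ppp5c, the protein phosphatase 5 gene, 733 bp from the start of that gene.

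Cirbp encodes the cold-inducible RNA-binding protein. Its 2 peaks were the narrowest of the set, at 227 and 189 bp, and both lay on the upstream side, 17.1 and 20.3 kb from the gene. The nearer held 16 fragments (interval 9.15 to 26.0) with a fold of 5.55, and the farther held 15 (interval 8.40 to 24.7) with a fold of 5.03. The nearer was inside Midn, the midnolin gene, 648 and 762 bp from its 2 annotated starts. The farther was inside Atp5d, which encodes a subunit of mitochondrial ATP synthase, 92 bp from the end of that gene and 269 bp from Midn. Each was also within 30 kb of Cbarp, Stk11, which encodes the kinase LKB1, and Fam174c.

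**Figure D2:**
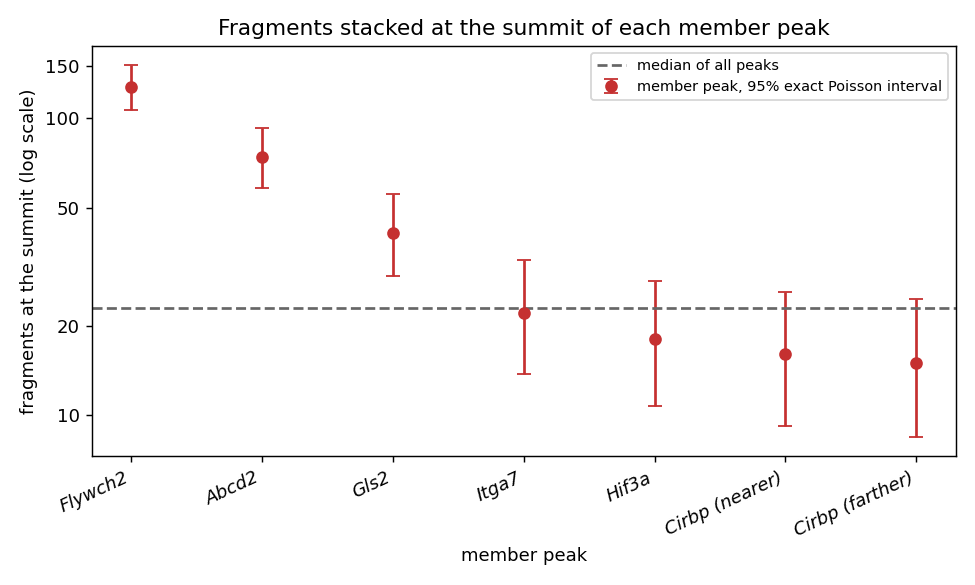
Fragments at the summit of the 7 peaks on a log axis, with 95% exact Poisson intervals as bars and the median of all peaks (23 fragments) as a dashed line. Flywch2, Abcd2 and Gls2 stand above the line with their whole intervals, while those of the other 4 peaks cross it.

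Ordered by fragments, the strongest peaks ran Flywch2, Abcd2, Gls2, Itga7, Hif3a and Cirbp. Flywch2 was 1.73 times Abcd2 and Abcd2 was 1.80 times Gls2, and in both steps the intervals did not overlap. From Gls2 down, each pair of neighbours overlapped in their intervals. The order of Itga7, Hif3a and Cirbp is therefore within counting error.

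**Figure D3:**
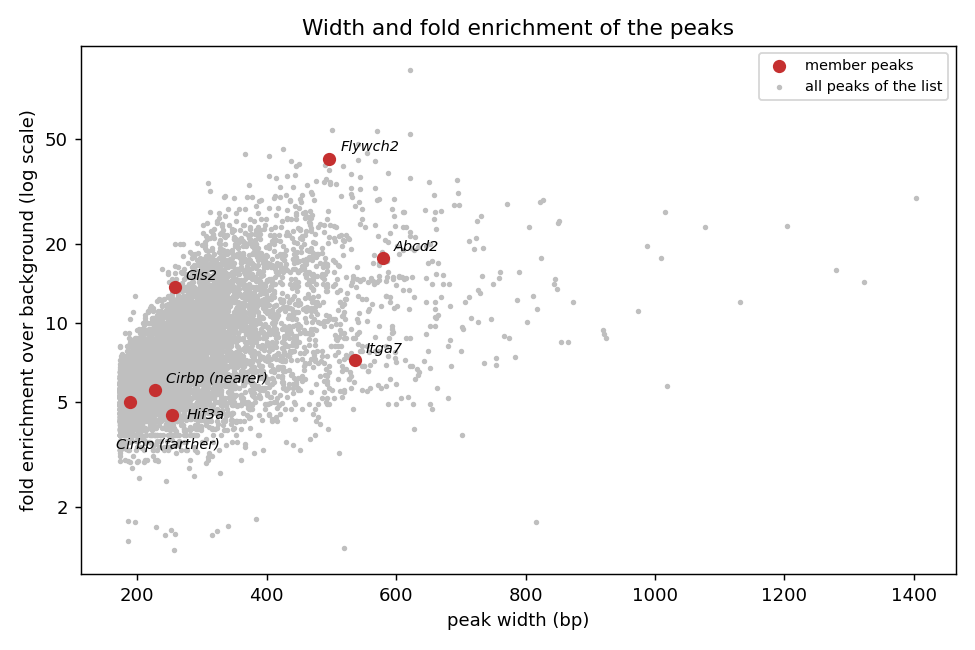
Fold enrichment on a log axis against peak width in bp, with the 7 peaks in red and all 7484 peaks in grey. Flywch2 and Abcd2 are both wide and strong, Itga7 is wide with a fold near the median, Gls2 is strong at the median width, and the Hif3a and Cirbp peaks have low folds at widths under the median.

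Sharing with neighbours was common. Each of the 7 peaks lay within 30 kb of at least 1 other protein-coding gene, whereas 57.3% of the 6100 peaks near any protein-coding gene had a single such gene. The counts were 2 genes for the Abcd2 peak, 3 for those of Flywch2, Gls2 and Hif3a, 4 for Itga7 and 6 for both Cirbp peaks. A count of 4 or more was found for 10.2% of gene-linked peaks. The 7 peaks were found through gene windows, so a peak near several genes had more ways to enter. Both shares count each peak once and are not a like baseline. The 2 Cirbp peaks also have the same 6 genes. The gene in question was the nearest protein-coding gene for 3 of the 7 peaks and not for the other 4. The genes themselves had a median of 3 others in their windows, against 2 over all protein-coding genes.

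The 4 genes without a peak differed in how far away the nearest one was. Agbl3, which encodes a cytosolic carboxypeptidase that removes glutamates from tubulin, had its nearest summit at 48.7 kb, inside the actin-binding gene Cald1, with 47 fragments and a fold of 13.1. Cbr2, a carbonyl reductase gene, had its nearest at 56.3 kb, inside Aspscr1, with 14 fragments and a fold of 4.90. Both were close to the window in the sense that a 100 kb window took them in. That wider window held a summit for 8 of the 10 genes and for 54.0% of all protein-coding genes.

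Gbp3 encodes an interferon-inducible GTPase, and its nearest summit was 259 kb away inside Pkn2, a protein kinase gene, with a fold of 6.35. Aldh1a1 encodes a retinaldehyde dehydrogenase that makes retinoic acid and marks a group of dopamine neurons. It has the longest span of the set, 151 kb, and no other protein-coding gene in its window. Its nearest summit was 1554161 bp away inside the nuclear receptor gene Rorb. A greater distance to the nearest summit was found for 3.99% of all protein-coding genes, and for 25.3% in the case of Gbp3. The median distance was 13.5 kb for the 10 genes and 82.0 kb for all protein-coding genes, with 0 for a summit inside the gene.

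Other genes reported to respond to thyroid hormone in brain were set beside the 10. This list too was chosen with earlier results of these data known, so its shares describe it and do not test it. Of 40, 23 had a peak in the window (57.5%, all protein-coding genes 32.4%). A peak of fold 10 or more was in the window of 12 (30%, all protein-coding genes 10.5%). A summit within 1 kb of a gene end was present at 3, Hr, Fxyd6 and Arg2 (7.5%, close to the 6.63% of all protein-coding genes). Of those 3, Arg2 was the only one whose end peak reached a fold of 10. Arg2 encodes the mitochondrial arginase, and its summit of 61 fragments and fold 19.4 lay 60 bp inside the gene, much as at Abcd2. Hr, the corepressor gene, and Klf9, a Krueppel-like factor gene, had their strongest peaks 4.59 and 5.18 kb outside the gene, with 104 and 107 fragments. Dbp, a clock output factor gene, had 99 fragments at a summit inside the gene and 2319 bp from its nearer end. These 3 counts lay below the 128 fragments of Flywch2, and all 3 intervals overlapped with its own. The strongest fold per gene had a median of 10.5 over the 6 genes with a peak, 10.4 over the 23 and 7.82 over all protein-coding genes with a peak.

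**Figure D4:**
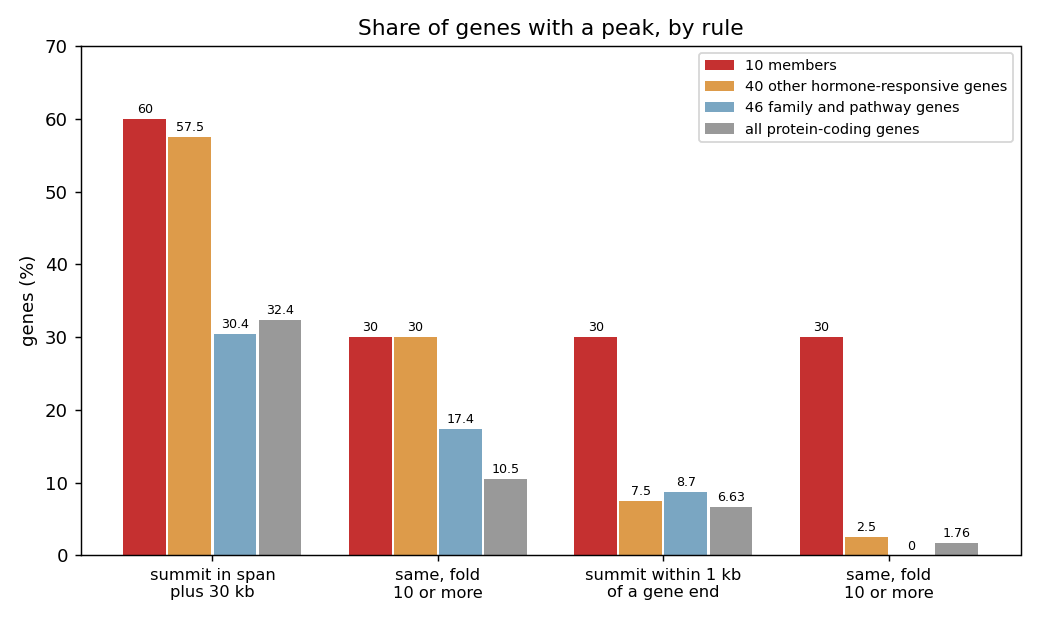
Share of genes in percent that met each of 4 rules, for the 10 genes, 40 other hormone-responsive genes, 46 family and pathway genes and all protein-coding genes. The first pair of lists stands at 60% and 57.5% for a summit in the window, and both at 30% for one of fold 10 or more. For a summit of fold 10 or more within 1 kb of a gene end they stand at 30% and 2.5%. All protein-coding genes stand at 32.4%, 10.5%, 6.63% and 1.76% by the 4 rules from left to right. The lists of 10, 40 and 46 genes were chosen with earlier results of these data known. The fold of 10 and the 1 kb distance were chosen after the values were seen.

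Relatives and pathway partners of the 10 genes had a peak in 14 of 46 cases, 30.4%, close to the 32.4% of all protein-coding genes. Flywch1 has the Flywch2 peak in its window. Cbr3, a carbonyl reductase gene like Cbr2, had 3 peaks, with 42 fragments at the summit of the one with the highest fold. Arnt2, a partner of the hypoxia-inducible factors, had 3, with 38 fragments at the one with the highest fold.

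These counts use the span plus 30 kb. In their own span alone 5 of the 46 genes held a summit, against 13.7% of all protein-coding genes. The only peak of Itga3, for example, lay inside Pdk2. By group, a peak in the window was present at 3 of 7 hypoxia pathway genes and 3 of 6 integrin and laminin genes. It was present at 2 of 5 peroxisomal genes, 1 of 4 carbonyl reductase genes and 1 of 5 relatives of Agbl3. None of the 7 guanylate-binding protein genes on the list had one, and neither did Rbm3, another cold-inducible RNA-binding protein gene. The relatives of Gls2 and Aldh1a1 are counted in the total of 14 but not given by group.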

How the data were processed

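Chromatin IP of 3 striatal fractions was set against 1 input, and 1 peak list was used. The submitters' processing notes name Bowtie2 (2.3.4.2), MACS2 (2.1.1.20160309.0), GRCm38 and mm10. Settings, and whether fractions were pooled, are not given in the sources used here. Columns deposited, per the file headers, are position, pileup signal, fold ratio and a q-value as −log10. Peaks are numbered up to 7653, and 169 numbers are not in the list used here, so a window without a peak holds none of the peaks used here. Fragments are pileup divided by a step of 0.939 (largest residual 0.00574). Depth per library was not used.

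Gene spans came from RefSeq GRCm38.p6 (21887 protein-coding genes on chromosomes 1 to 19, X and Y), with starts and strands from its promoter table. Python 3.11.15, pandas 2.3.3 and scipy 1.17.1 were used, and window and motif counting was tested on simulated data. No test across genes was run. The members, the lists of 40 and 46 genes and the markers were chosen with earlier results of these data known. Named genes are the 10 members, genes holding or nearest to their summits, and the 4 strongest of each list, of which 1 family gene is not reported here; other neighbours, relatives and the 3 genes of end peaks were named after their values were seen. Alternatives changed the peak list, the window and the motif.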

Additional observations from a re-analysis of the deposited data

How the results depend on the processing

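No paired analysis was possible because the list holds 1 value per peak and none per library, and no library could be left out. Of the 7 peaks at the 10 genes, 4 were left with a −log10 q of at least 10, 4 with a fold above the median and 4 in a 5 kb window, each without both Cirbp peaks. The gene span alone held 2, and a 100 kb window 13. Of the 10 genes, 6 had a peak, against 32.4% of all protein-coding genes. There were 2 by the gene span alone (all genes 13.7%) and 8 at 100 kb (54.0%). There were 4 with a −log10 q of at least 10 (20.4%), above the median fold (19.5%) and at 5 kb (19.1%). Without the 1% highest pileups and widest peaks there were 5 (32.1%), leaving out Flywch2 by construction. Counted from gene ends only (30.1%) or by the peak interval (32.5%) there were 6. Of the 40 other hormone-responsive genes, 23 had a peak, and 15 above the median fold and 12 by the gene span. Of the 46 family genes, 14 had a peak, and 5 by the gene span and 24 at 100 kb. Among the 7 genes with a promoter window, a half-site was in 0 with AGGTCA alone, in 4 with GGGTCA added and in 2 with AGGACA added, and a DR4 match in 2 with up to 3 mismatches and in 0 with up to 2. Fewer peaks or narrower windows lower these counts by construction. Ranking by pileup could change the strongest peak only at Cirbp, the other 5 genes having 1 peak each, and did not. The count of 3 genes with a summit within 1 kb of an end had alternatives chosen after seeing the data: at 500 bp, at 2 kb and with stronger peaks only it was 3, and without the 1% extremes 2. At summits of 15 to 22 fragments, differences between peaks were not detectable at this depth.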
